A study of Mus musculus with 4 samples.

Results

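The genes examined are 8 that restrain cell division: the INK4 genes Cdkn2a, Cdkn2b, Cdkn2c and Cdkn2d, the CIP/KIP genes Cdkn1a and Cdkn1b, and the BTG genes Btg1 and Btg2. A gene was represented by the probe set that names it alone and was brightest over the 4 arrays. Of the 8 genes, 7 had such a probe set, out of 19937 genes measured, and Cdkn1a has no value here because its probe set also names 4930567H12Rik. The tumours arose in C57/Bl6 mice after a retrovirus carrying PDGF-B and EGFP was given by injection to embryos on embryonic day 14, so every sample overexpresses both, and no untreated brain was part of the comparison. The cells were EGFP-positive cells sorted from dissociated tumours. The early-onset group consisted of 2 pools, each made of cells from 2 tumours and labelled low-grade, and the late-onset group of 2 single tumours labelled high-grade. The ages at onset are not given in the sources used here. Onset, grade and pooling differ together between the groups and cannot be told apart.

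INK4 proteins bind the kinases CDK4 and CDK6 and keep them from pairing with D-type cyclins, which leaves RB able to hold E2F factors. Cdkn2a encodes p16INK4a and, from another first exon and reading frame, p19ARF, which binds MDM2 and spares p53. CIP/KIP proteins such as p27 (Cdkn1b) bind assembled cyclin-CDK complexes, and BTG proteins bring the CCR4-NOT deadenylase to messenger RNAs and slow the G1 to S transition. The CDKN2A/CDKN2B locus is a frequent target of deletion in human high-grade glioma.

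The windows of 250 bases before the start sites of the 3 members that passed the test are shown because they place both promoters of Cdkn2a, and because Cdkn2b and Btg2, which differed in opposite directions, both hold a cAMP response element. They are RefSeq sequence of mouse build GRCm38.p6, all on the minus strand, written 5′ to 3′ and ending at the base before the start site. Capitals mark the GC box GGGCGG in the first window and the cAMP response element TGACGTCA in the last pair; the second window has no capitals.
Cdkn2a, upstream start (first exon of the ARF transcript), chr4:89294620-89294869: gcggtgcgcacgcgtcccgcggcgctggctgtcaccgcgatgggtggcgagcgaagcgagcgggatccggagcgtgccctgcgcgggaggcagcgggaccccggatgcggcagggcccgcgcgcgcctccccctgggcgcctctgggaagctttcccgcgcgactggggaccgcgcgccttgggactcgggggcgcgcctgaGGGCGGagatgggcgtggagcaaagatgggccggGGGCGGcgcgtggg
Cdkn2a, downstream start (first exon of the INK4a transcript), chr4:89282193-89282442: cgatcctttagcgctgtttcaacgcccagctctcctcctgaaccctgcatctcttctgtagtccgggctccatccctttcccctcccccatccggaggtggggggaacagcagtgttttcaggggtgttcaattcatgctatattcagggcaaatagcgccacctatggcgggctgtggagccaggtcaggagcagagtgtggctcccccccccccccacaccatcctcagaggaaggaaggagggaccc
Cdkn2b, chr4:89311033-89311282: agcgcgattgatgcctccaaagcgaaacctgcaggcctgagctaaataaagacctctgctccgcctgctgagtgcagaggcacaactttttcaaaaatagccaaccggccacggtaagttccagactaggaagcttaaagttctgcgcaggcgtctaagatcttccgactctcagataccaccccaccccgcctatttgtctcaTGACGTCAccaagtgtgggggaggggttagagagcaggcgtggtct
Btg2, chr1:134079156-134079405: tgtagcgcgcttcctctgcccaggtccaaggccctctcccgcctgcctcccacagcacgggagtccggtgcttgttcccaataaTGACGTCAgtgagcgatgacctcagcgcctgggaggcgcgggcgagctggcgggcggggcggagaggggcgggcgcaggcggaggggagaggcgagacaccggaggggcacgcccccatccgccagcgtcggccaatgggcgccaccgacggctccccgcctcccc
The Cdkn2a start sites lie 12427 bases apart, and the start of Cdkn2b lies 16413 bases upstream of the ARF start on the same strand. The one Cdkn2a probe set is annotated to both transcripts, so p16INK4a and p19ARF transcripts cannot be told apart in its values. GC content was 78.4% in the ARF window, 60% in the INK4a window, 53.6% before Cdkn2b and 73.2% before Btg2. The element TGACGTCA matched at 46 bases before the Cdkn2b start and at 166 bases before the Btg2 start, and is held by 1.55% of 32851 windows of the same length. The GC box matched at 48 and 14 bases before the ARF start and at 115, 110 and 100 bases before the Btg2 start, and is held by 32.7% of windows. The E2F motif TTTNGCGC matched in the INK4a window at 244 bases before the start, against 1.13% of windows. Both strands were searched, and the element holds the shorter TGACG, also searched and held by 17.8% of windows. The remaining motifs searched were CACGTG (6.02% of windows), TGANTCA (6.75%), GTAAACA (3.17%) and TATAAA (12.4%), with no match in these 4 windows. A match describes letters, not a bound site.

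Cdkn2a and Cdkn2b were higher and Btg2 was lower in the late-onset tumours than in the early-onset pools, while Cdkn2c, Cdkn2d, Cdkn1b and Btg1 did not pass the test. Levels are normalized log2 intensities, groups were compared with limma, and a gene was called at a Benjamini-Hochberg adjusted p under 0.05 over all genes. Of the 7 members 2 were called higher, where 6.59% of all genes were, and 1 was called lower, where 8.12% were. Over all genes, 14.7% were called in either direction. All 7 members lay above the median level, while the shares over all genes, here and below, include dimmer genes. In a fit of only the genes above the median level, 27.6% were called, with 3 members higher and 1 lower. Both late arrays lay above both early arrays for all 4 INK4 genes, against 28.5% of all genes, and below them for Btg2, against 30.4%. The median change was 0.78 over the INK4 genes, 0.43 over the 7 members and -0.01 over all genes. With 2 samples against 2, an exact permutation test of a single gene cannot give a 2-sided p below 0.333, so the calls rest on limma's pooling of the spread over genes. Leaving out an array leaves 1 sample in its group, and fewer of all genes were then called. A call lost that way need not be particular to the gene named. In sorted cells measured in bulk, fewer cells of a type and less RNA per cell cannot be told apart.

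**Figure D1:**
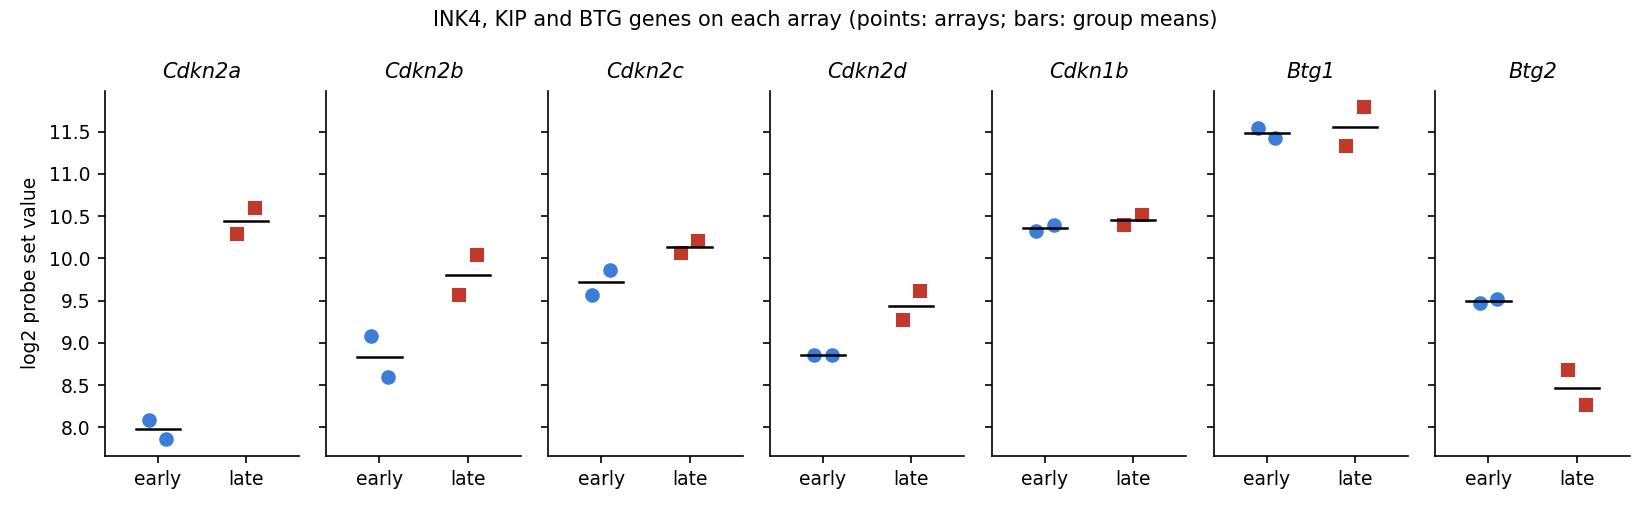
Normalized log2 level (vertical axis) of each measured member on the 2 early-onset pools and the 2 late-onset tumours; points are arrays and bars are group means. Cdkn2a stands 2.46 higher in the late tumours, Btg2 1.03 lower, and Cdkn1b and Btg1 overlap between the groups; levels of different genes are not comparable, since each is 1 probe set.

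Cdkn2a had the largest difference of the members. Its log2 level was 8.09 in pool 1 and 7.86 in pool 2, and 10.29 in tumour 1 and 10.59 in tumour 2. Both tumours lay more than 2 log2 units above both pools, and the arrays within a group differed by no more than 0.30. The group means were 7.98 ± 0.16 and 10.44 ± 0.21 (SD, n = 2 each), a difference of 2.46 (SE 0.15, 95% interval 2.08 to 2.84, adjusted p = 0.00208, limma). That is a 5.51-fold higher intensity, with an interval of 4.24 to 7.17, and a difference larger in size than that of 99.2% of genes. Cdkn2a passed the threshold in all 15 alternative fits, with differences of 2.31 to 2.61.

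Cdkn2b encodes p15INK4b, the INK4 inhibitor known as a target of TGF-beta signalling. Its level was 9.08 in pool 1 and 8.59 in pool 2, and 9.57 in tumour 1 and 10.04 in tumour 2. The groups did not overlap, but pool 1 and tumour 1 were 0.49 apart, as were the pools from each other. The mean rose from 8.84 ± 0.34 to 9.80 ± 0.33, a difference of 0.97 (SE 0.23, interval 0.39 to 1.54) or 1.96-fold, with an adjusted p of 0.0494 (limma). This call was at the threshold. It was lost without pool 1 (1.21, adjusted p = 0.0723), pool 2 (0.72, adjusted p = 0.206) or tumour 2 (0.73, adjusted p = 0.122), and passed in 8 of 15 alternatives, over which the adjusted p ranged from 0.0372 to 0.206. Some markers of pericytes and fibroblasts also stood higher in tumour 2, such as Col1a1 (10.23, against 7.26 in tumour 1 and 7.44 and 7.57 in the pools). Tumour 2 exceeded tumour 1 by 4.27 for Dcn, 3.39 for Lum, 2.97 for Col1a1 and 2.88 for Acta2. It did so by 2.51 for Col3a1, 2.30 for Tagln and 1.90 for Pdgfrb. Kcnj8 (0.23), Abcc9 (0.30) and Rgs5 (0.13) differed less between the tumours. Rgs5 was at 4.91 in tumour 2 and at 5.48 and 5.33 in the pools, and Cspg4 was lowest in tumour 2 (11.19). Of the 11 markers, 0 were called higher and 1 lower (limma). The log2 of their summed level, in which Cspg4 was the brightest on each array, was 12.81 in tumour 2. It was 11.93 in tumour 1 and 11.91 and 12.02 in the pools. The median level of the markers was 8.44 in tumour 2, 6.13 in tumour 1, and 6.51 and 6.34 in the pools. Their part in the Cdkn2b values was not tested.

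Cdkn2d, which encodes p19INK4d, was at 8.85 in both pools, at 9.27 in tumour 1 and at 9.61 in tumour 2. The tumours lay above the pools, and the spread came from the tumours. The difference of 0.59 (SE 0.14, interval 0.23 to 0.95) had an adjusted p of 0.0528 (limma) and was not called. It passed in 7 of 15 alternatives, among them the fit without tumour 1 (0.76, adjusted p = 0.0244), and its adjusted p was as high as 0.219 without pool 2. Cdkn2c, which encodes p18INK4c, was at 9.57 and 9.86 in the pools and at 10.06 and 10.21 in the tumours. The groups were separate, but pool 2 and tumour 1 were closer together than the pools were. The difference of 0.43 (SE 0.14, interval 0.08 to 0.77) had an adjusted p of 0.107 (limma) and passed in 0 of 15 alternatives, where it lay between 0.28 and 0.57.

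Cdkn1b encodes p27, which binds cyclin E-CDK2 and is removed by the SKP2 ubiquitin ligase. Its level was 10.32 and 10.40 in the pools and 10.39 and 10.51 in the tumours. The groups overlapped, since tumour 1 lay just below pool 2. The difference was 0.09 (SE 0.10, interval -0.17 to 0.36, adjusted p = 0.625, limma), which leaves late-to-early ratios between 0.888 and 1.28 within the interval. A second probe set for the gene read 9.24 and 9.11 in the pools and 9.23 and 9.60 in the tumours, a difference of 0.24 (SE 0.16, adjusted p = 0.381) in a fit over 21640 probe sets, of which 14.5% were called. Tumour 2 was its highest array, and the other 3 lay together.

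Btg2, an early-response gene also induced by p53, was the one member that fell. Its level was 9.47 in pool 1 and 9.52 in pool 2, and 8.68 in tumour 1 and 8.26 in tumour 2. The pools were nearly equal, and both tumours were lower, tumour 2 the more so. The mean fell by 1.03 on the log2 scale, from 9.50 ± 0.04 to 8.47 ± 0.29 (SE 0.16, interval -1.43 to -0.62, adjusted p = 0.0166, limma), so that the intensity was 2.04-fold lower. The call was lost without pool 1 (adjusted p = 0.0816) and without pool 2 (adjusted p = 0.103), and passed in the other 13 alternatives; over all 15 the difference lay between -1.24 and -0.82. Btg2 lies on chromosome 1, where the median gene above the median level was 0.40 lower in tumour 2 than in tumour 1 over 578 genes (a log2 difference of -0.40, against -0.42 for Btg2 and between 0.03 and 0.04 on the chromosomes of the other members). The median late-minus-early difference of those chromosome 1 genes was 0.24. Its part in the Btg2 values was not tested.

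Btg1, a relative of Btg2 abundant in resting cells, was at 11.54 and 11.43 in the pools and at 11.33 and 11.79 in the tumours. The tumours enclosed the pools: tumour 1 was the lowest array and tumour 2 the highest. The difference was 0.07 (SE 0.17, interval -0.37 to 0.51, adjusted p = 0.837, limma), or a ratio of 1.05 with an interval of 0.774 to 1.42. Its sign turned under quantile normalization (-0.05), cyclic loess (-0.06) and without tumour 2 (-0.16). The near-identical copies Btg1b and Btg1c have probe sets of their own, which differed by 0.16 (adjusted p = 0.386) and -0.14 (adjusted p = 0.441), and whether the Btg1 probe set also reads their transcripts was not tested.

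**Figure D2:**
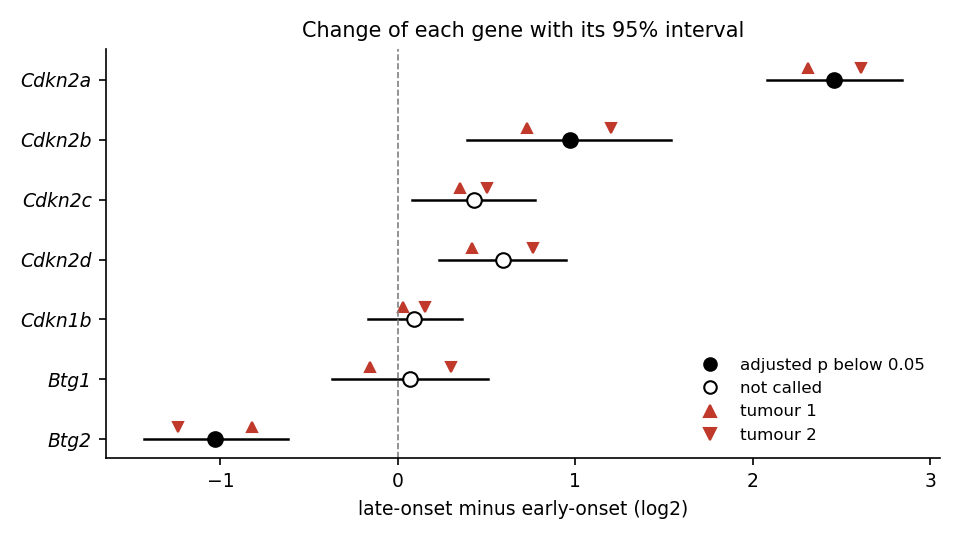
Late-minus-early log2 difference of each measured member (circles, filled where the adjusted p is under 0.05) with its 95% interval from limma (lines); triangles show each late tumour minus the mean of the pools and the dashed line is 0. The intervals of Cdkn2a (2.08 to 2.84) and Btg2 (-1.43 to -0.62) lie farthest from 0, and those of Cdkn1b and Btg1 include it.

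**Figure D3:**
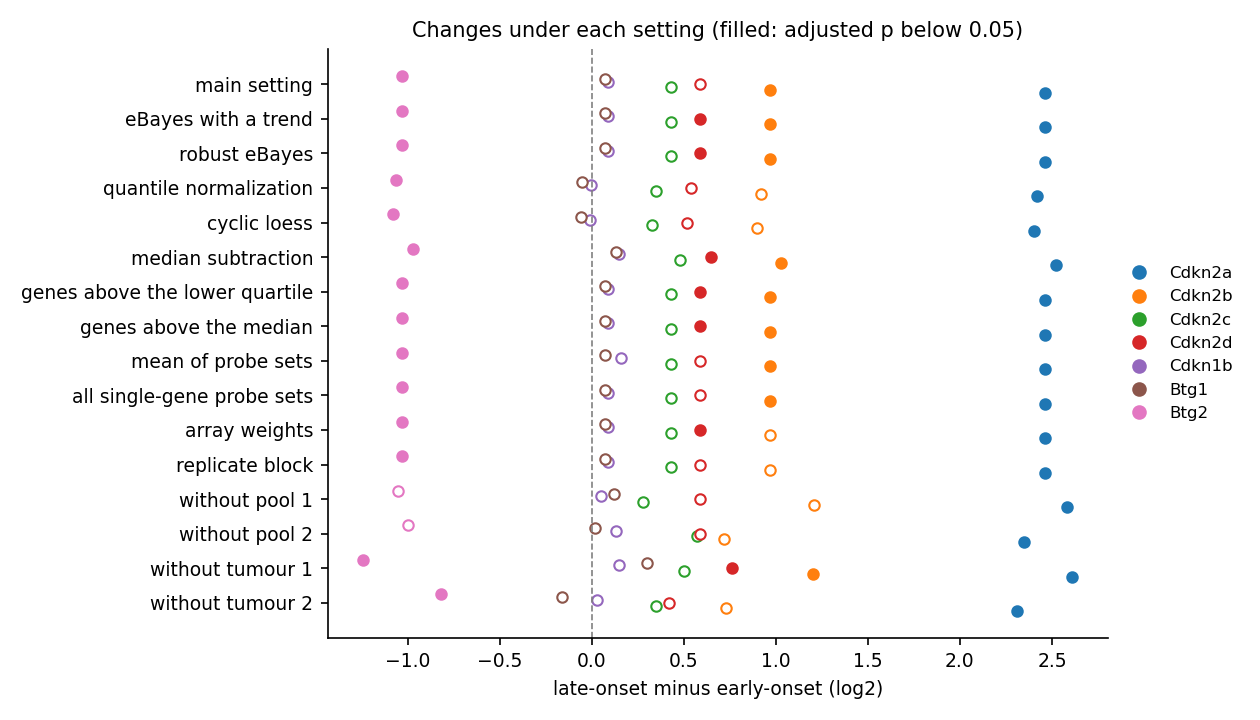
Late-minus-early log2 difference (horizontal axis) of each member, by colour, in the main setting and the 15 alternatives, filled where the adjusted p is under 0.05. Cdkn2a is filled throughout, Cdkn2b in 8 alternatives, Cdkn2d in 7 and Btg2 in 13.

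The genes beside Cdkn2a and Cdkn2b were read on the same arrays to show how far along the chromosome the difference reached. Mtap, the methylthioadenosine phosphorylase gene next to Cdkn2a, was at 8.74 and 8.76 in the pools and at 9.53 and 9.37 in the tumours. It rose by 0.69 (SE 0.11, adjusted p = 0.0159, limma) with separate groups. On the other side, Dmrta1, next to Cdkn2b, was at 7.61 and 7.85 in the pools and at 8.32 and 7.98 in the tumours, a difference of 0.42 (SE 0.16, adjusted p = 0.153) that did not pass. Of the 9 measured neighbours of Cdkn2a other than members, 1 was called higher and 0 lower, and the median difference was 0.04 (-0.16 to 0.69). Ifna4, Izumo3 and Mir31 were dim, with pool means of 4.54, 3.95 and 5.16 against a lower quartile of 5.52 over all genes. Ifna5 (-0.16) and Elavl2 (0.15) were above the median level of 7.44 and were not called. A dim probe set can hide a change, so the median does not show where the difference ended. Over the 619 chromosome 4 genes above the median level, a filter not applied to the neighbours, the median was 0.04.

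**Figure D4:**
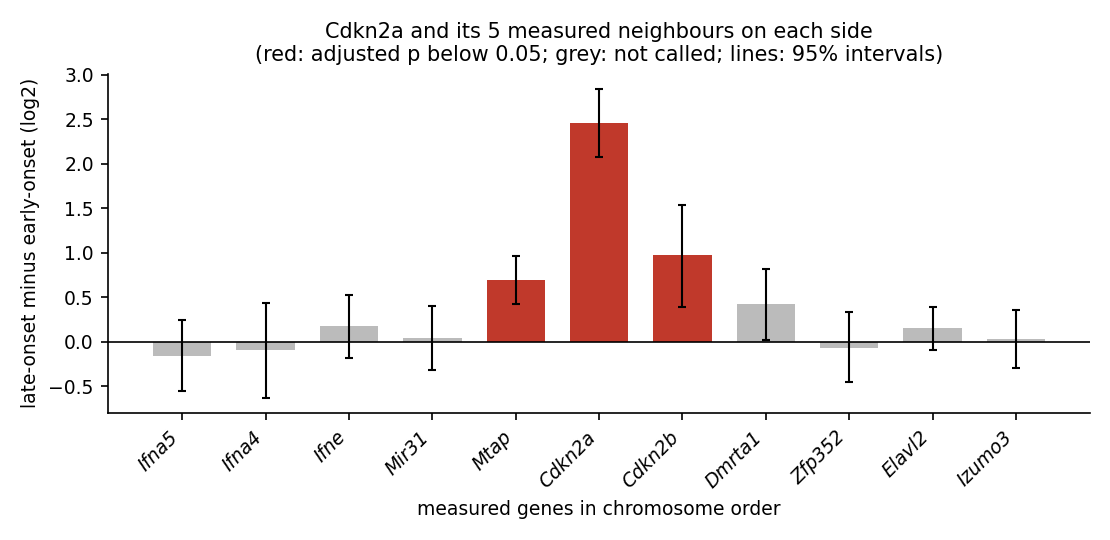
Late-minus-early log2 difference (bars, red where the adjusted p is under 0.05) of Cdkn2a and its 5 measured neighbours on each side in chromosome order, with 95% intervals as lines; distances are not drawn to scale. Mtap (0.69), Cdkn2a (2.46) and Cdkn2b (0.97) are red and stand side by side.

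The nearest measured neighbours of the other members did not pass the test. They were 9630013D21Rik (-0.17) and Faf1 (0.30) for Cdkn2c, Kri1 (0.15) and Ap1m2 (-0.00) for Cdkn2d, Gpr19 (0.35) and Apold1 (0.03) for Cdkn1b, and Fmod (0.01) and Chit1 (0.13) for Btg2. Btg1 lies between Eea1 (0.20) and Dcn (1.01), the gene of the matrix proteoglycan decorin. Dcn was at 5.84 and 6.34 in the pools, 4.96 in tumour 1 and 9.23 in tumour 2, so its difference came from tumour 2.

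By likeness of the 4 centred values, over 9779 genes above the median level, the genes nearest to Cdkn2a were Uaca, Vit and Mcam, with root mean square differences of 0.09, 0.16 and 0.17 log2 units. Those nearest to Cdkn2b were Higd1a (0.04), Gadd45g (0.05) and Ccne1 (0.06), and those nearest to Btg2 were Pnmal2 (0.03), Ppp1r9a (0.03) and Kctd12b (0.04). Pak4, Pprc1 and Dgka came within 0.02 of Cdkn2c, and Rflnb, Otub1 and Nop9 within 0.02 of Cdkn2d. Rcc1l, Scap and Map4 were within 0.01 of Cdkn1b, and Rnh1, Ube2b and Atp5l within 0.03 of Btg1. With 4 arrays such likeness is a description only.

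Among the other inhibitor and BTG/TOB genes, 1 of 5 measured was called higher and 0 lower (0 lower also at an unadjusted limma p under 0.05). Over all genes, 6.59% were called higher and 8.12% lower. Cdkn3, a phosphatase that acts on CDKs, was at 6.97 and 7.18 in the pools and at 8.54 and 8.48 in the tumours. It rose by 1.43 (SE 0.12, adjusted p = 0.00372), with both tumours above both pools. Cdkn1c, which encodes the third CIP/KIP protein, p57, differed by 0.25 (adjusted p = 0.428), and Tob1 by -0.17 (adjusted p = 0.338). Cdkn3 passed in all 15 alternatives.

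Of 15 genes of the G1 and S phase kinases and cyclins, 7 were called higher and 1 lower, against 14.7% of all genes in either direction. The list also holds genes whose products the inhibitors are not known to bind: Cdk7, Ccnh and Mnat1 of the CDK-activating kinase, none of them called, and the phosphatase gene Cdc25a, one of the 7 higher calls (0.92, named after its value was seen). Cdk1 rose by 1.15, Ccne2 by 1.10 and Ccne1 by 1.06. Cdk6, a kinase that INK4 proteins bind, was at 7.17 and 7.22 in the pools and at 6.14 and 6.23 in the tumours, and fell by 1.01 (SE 0.10, adjusted p = 0.0057, limma). Cdk4, the other such kinase, differed by 0.35 (interval 0.10 to 0.60, adjusted p = 0.078) and did not pass. Of the D-type cyclins, Ccnd3 rose by 0.71 (adjusted p = 0.0161), whereas Ccnd1 differed by 0.25 (adjusted p = 0.234) and Ccnd2 by -0.40 (adjusted p = 0.115). The count of 7 became 3 without pool 1 and 4 without pool 2. The calls of Cdk1 (without pool 1), Ccne1 (without pool 2 or tumour 2) and Ccnd3 (without either pool) were lost.

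Of 13 RB, E2F and DP genes, 4 were called higher, where 6.59% of all genes were, and 0 lower, where 8.12% were. At an unadjusted limma p under 0.05, 8 were higher and 1 lower. E2f7 rose by 1.29, E2f8 by 0.91 and E2f1 by 0.73, while Rb1 itself differed by -0.12 (SE 0.10, adjusted p = 0.481). The 4 became 2 without pool 1 and 1 without pool 2, and E2f1 lost its call without either pool and E2f8 without pool 2. Of 19 E2F targets of S phase, 14 were called higher and 0 lower (0 also unadjusted), and both tumours exceeded both pools for all 19, against 28.5% of genes. Chaf1b, a chromatin assembly subunit, rose by 1.36, the ribonucleotide reductase subunit Rrm2 by 1.18 and the helicase subunit Mcm3 by 1.25. The 14 became 8 without pool 1 and 2 without pool 2; Mcm3 lost its call without either pool and Rrm2 without pool 2. All 15 measured mitosis genes were called higher, with Nek2 up by 1.80, Nusap1 by 1.38 and Aurka by 1.37, and 8 were without pool 1. The median difference was 0.88 over the E2F targets and 1.22 over the mitosis genes, against -0.01 over all genes. The proliferation marker Mki67 rose by 1.03 (adjusted p = 0.00853), a call lost without either pool (adjusted p = 0.0582 and 0.0501).

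Of 22 measured genes of the p53 list, which bears on ARF, 5 were called lower, where 8.12% of all genes were, and 0 higher (0 also at an unadjusted limma p under 0.05). The other 17 were not called, and the median difference was -0.26. Trp53, the gene of p53 itself, and Bax were also on the list but had no measured value here. The receptor gene Eda2r fell by 2.54, Trp53inp1 by 1.23 and Ccng1 by 1.10. Mdm2, the ARF partner and a p53 target, was at 10.03 and 9.73 in the pools and at 9.81 and 10.04 in the tumours, so the groups overlapped. Its difference of 0.05 (interval -0.33 to 0.43, adjusted p = 0.866) turned sign under quantile normalization, cyclic loess and without pool 2 or tumour 2. The 5 lower calls became 3 without pool 1, 2 without tumour 1 and 1 without tumour 2. Trp53inp1 lost its call without either tumour, and Ccng1 without pool 1 or either tumour.

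Regulators of the locus were read next. Of 16 polycomb genes, whose products repress Cdkn2a in stem cells, 4 were called higher and 1 lower. Among all genes, 6.59% were called higher and 8.12% lower. Ezh2, the histone H3 methyltransferase, was at 10.01 and 10.06 in the pools and at 11.02 and 10.96 in the tumours, and rose by 0.96 (SE 0.10, adjusted p = 0.00608, limma). Rnf2 rose by 0.68 and Eed by 0.67, whereas Bmi1 differed by 0.42 (adjusted p = 0.0683). With the probe sets of each gene averaged, Eed differed by 0.45 (adjusted p = 0.0853, limma) and was not called. In that fit 3 polycomb genes were called higher and 0 lower. Rnf2 was not called with the replicate block (adjusted p = 0.0528, limma). Without either pool 1 polycomb gene was called higher, and Rnf2 and Eed lost their calls. Of 20 other regulators of the INK4 and ARF genes, 0 were called higher (3 at an unadjusted limma p under 0.05) and 2 lower, near the share among all genes. These were the TGF-beta receptor genes Tgfbr2, which fell by 1.34, and Tgfbr1, which fell by 0.79. Tgfbr2 lost its call without either pool, and Tgfbr1 without pool 1 or tumour 2. Without pool 1 no such regulator was called lower; without tumour 1, 4 were lower and 2 higher.

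**Figure D5:**
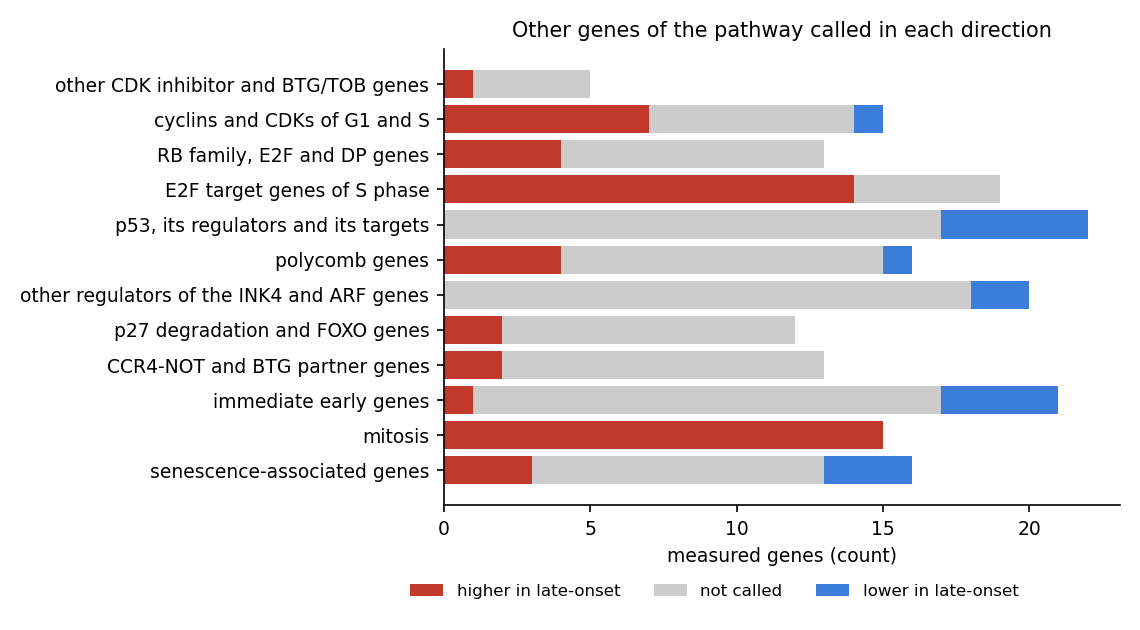
Number of measured genes (horizontal axis) in each pathway list that were called higher (red), called lower (blue) or not called (grey) in the late-onset tumours at an adjusted p under 0.05. All 15 mitosis genes and 14 of 19 E2F targets are red, and 5 of 22 genes of the p53 list are blue with 0 red.

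For p27, 2 of 12 genes listed for its degradation and for FOXO control were called higher and 0 lower. At an unadjusted limma p under 0.05, 2 were lower. The 16.7% called is near the 14.7% of all genes. Cks1b, the SKP2 cofactor, rose by 1.73, and Skp2 differed by 0.56 (adjusted p = 0.0527, limma). Dtl, a ligase subunit on the list, rose by 1.32, and its action on p27 was not examined here. Cks1b lost its call without pool 1 and Dtl without either pool, which left 0 of 12 and 1 of 12 higher. Of 13 CCR4-NOT and BTG partner genes 2 were called higher, near the share of all genes called, and 0 lower (1 unadjusted). They were the arginine methyltransferase gene Prmt1 (0.76) and Cnot11 (0.57), and without either pool 0 were called.

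Btg2 is an immediate early gene. Of 21 others 4 were called lower, where 8.12% of all genes were, and 1 higher, where 6.59% were. At an unadjusted limma p under 0.05, 4 were lower and 3 higher. Atf3, a stress-induced factor, was at 11.12 and 10.66 in the pools and at 8.57 and 8.72 in the tumours, and fell by 2.24 (SE 0.18, adjusted p = 0.0037, limma). Zfp36, which destabilizes messenger RNAs, fell by 1.24, and Egr2 rose by 1.24. Atf3 and Zfp36 passed in all 15 alternatives, and Egr2 lost its call without either pool. The 4 lower calls became 2 without pool 1 and 2 without tumour 1, and without tumour 1 there were 3 higher. The list median was 0.06 and turned to -0.06 under cyclic loess.

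Markers of other cell types also differed between the groups, although the cells had been sorted for EGFP, which would leave out cells that do not carry the virus. Each count below can be set beside the 8.12% of all genes called lower and the 6.59% called higher. Of 19 microglia and macrophage markers 18 were called lower and 0 higher (0 also unadjusted, limma), with a median difference of -3.95. The log2 of their summed level was 15.66 and 15.45 in the pools and 11.32 and 12.02 in the tumours. Markers of oligodendrocyte progenitors, the cells that gliomas driven by PDGF-B are known to resemble, were high on all arrays, with median levels of 12.13 and 12.20 in the pools and 11.85 and 11.69 in the tumours; 4 of 10 were called lower. Of 10 astrocyte markers 5 were called lower and 0 higher (0 also unadjusted). Of 11 neuron markers 6 were called lower and 1 higher, and of 9 markers of myelinating oligodendrocytes 2 were called lower and 1 higher. Whether fewer cells or less RNA per cell lay behind the lower markers cannot be told apart. The part of these differences in the values of Btg2, Atf3, Zfp36, Tgfbr1, Tgfbr2 and the p53 list, and in those of the INK4 genes, was not tested.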

How the data were processed

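RNA of 4 samples was hybridised to Affymetrix mouse arrays, 1 per sample. The deposited table holds log2 values, which the authors made with RMA and affy 3.4.2, per the submitters' processing notes; their parameters and the scanner files were not used here. Values ran from 2.17 to 14.8 with array medians of 6.63 to 6.71. Of 34760 probe sets, 21640 named 1 gene in the platform annotation, 1321 several and 11799 none; 21553 matched RefSeq (GRCm38.p6). Of the 21640, the brightest over all arrays stood for each of 19937 genes.

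Late was compared with early in limma 3.58.1 (R 4.3.3; lmFit and eBayes, no covariate), with Benjamini-Hochberg adjustment over all genes, 95% intervals, 2 residual and 3.27 prior degrees of freedom. The labels call the samples biological replicates. The p-values measure the spread between these samples, and 2 arrays per group limit the precision. Each early sample averages 2 tumours and each late sample is 1 tumour, while the fit takes 1 spread per gene for both groups. The script was tested on simulated data. Scan and slide batches are not given in the sources used here.

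Members and lists were chosen with earlier results of these data known. Named genes are all members, up to 3 called genes per list with the largest differences, a fixed set of RB, CDK4/6, cyclin D, MDM2, polycomb, SKP2 and Ki-67 genes, the nearest measured neighbours and the 3 genes of most similar profile. Alternatives changed the moderation, normalization, filter, probe-set rule, weights, replicate block or left out 1 array.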

Additional observations from a re-analysis of the deposited data

How the results depend on the processing

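Cdkn2a kept its call in all 15 alternatives. The count of members called higher, 2 in the main fit, was 1 under quantile normalization, cyclic loess and the replicate block, and 3 with a variance trend, robust moderation, median subtraction and either filter on dim genes; it ranged from 1 to 3 when an array was left out. The count called lower, 1, ranged from 0 to 1 when an array was left out, with 0 without either pool. With the replicate block, Cdkn2b (adjusted p = 0.113, limma) lost its call, Btg2 (adjusted p = 0.0423) kept it, and 1833 genes were called in place of 2931. Over all genes, the deviations of same-numbered samples correlated at -0.04. With 2 samples per group this rests on 1 difference per group, so it does not settle whether the numbers pair the samples. Differences near 0 changed sign under quantile normalization and cyclic loess: Cdkn1b to -0.0014 and -0.01, Btg1 to -0.05 and -0.06, Mdm2 to -0.02 and -0.04. With an array left out, Btg1 ranged from -0.16 to 0.30 and Mdm2 from -0.10 to 0.20. Without pool 1, 943 genes were called, and without pool 2, 850. The share of calls that were higher was 44.8%, 37.8% under cyclic loess and 53.8% under median subtraction. Of 180 list counts of higher calls 27 fell and 3 rose by over 1.5 times; of 180 lower counts 15 fell and 8 rose; 18 of 180 list medians moved by over 0.1. Of 34 called list genes named, 14 passed in every alternative that held them, and 0 changed sign; Cdk6 and Il1b, among the 14, were below the median level and so were not in that filter's fit. Background correction, a detection filter and slide blocks need scanner files and were not run.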

Other observations

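Of 16 measured genes linked to senescence, a state in which INK4 genes are typically high, 3 were called higher and 3 lower. Their median difference was -0.02. Among all genes, 6.59% were called higher and 8.12% lower. The list mixes secreted factors with nuclear and lysosomal genes. The higher calls, named after their values were seen, were Hmgb2 (1.16) and Lmnb1 (0.61), which encode nuclear proteins typically lost in senescent cells, and Igfbp3 (0.71), which encodes a secreted factor. Hmgb1, on the same list, differed by 0.16 (adjusted p = 0.453, limma), and its groups overlapped. The 3 lower calls were all secreted factors. The cytokine gene Il1a was at 11.17 and 10.25 in the pools and at 5.25 and 5.90 in the tumours, and fell by 5.14 (SE 0.36, adjusted p = 0.00289, limma). Il1b fell by 2.60 and the chemokine gene Ccl2 by 1.23. Ccl2 lost its call without pool 1 or either tumour. The 3 higher calls became 1 without pool 1, pool 2 or tumour 2, and under quantile normalization, cyclic loess and the replicate block, and 5 without tumour 1. The 3 lower calls became 2 without pool 1 or tumour 1 and under the replicate block, 4 without pool 2, and 1 in the fit of genes above the median level, which leaves out Il1b and Ccl2. Il1a and Il1b are also made by macrophages, whose markers fell on the same arrays, and the part of those markers was not tested. Markers of lymphocytes (1 of 10), granulocytes (1 of 8) and endothelium (1 of 10) were called lower, where 8.12% of all genes were, and 0 were called higher by limma (0 also at an unadjusted p under 0.05).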
